A study of Drosophila melanogaster with 3 samples.

Results

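The Myc-Max network genes described here are Myc, Max, Mnt, bigmax, Mondo and crp, all of which encode basic helix-loop-helix (bHLH) proteins with a leucine zipper. They were chosen by name, with earlier results of these data known, and all 6 were found among the 13968 protein-coding genes of the annotation. The data are chromatin immunoprecipitation with sequencing (ChIP-seq) of GFP-tagged net, itself a bHLH transcription factor, in whole Drosophila melanogaster prepupae. There was 1 group of 3 biological replicates, numbered 1, 3 and 4, of a transgenic line that stably expresses net with GFP at its C-terminus. Males and females were pooled, the exact age was given as unknown, and chromatin was sheared by sonication before precipitation with an anti-GFP antibody. No flies without the tagged protein and no control library were analysed here, and the design holds no contrast. Signal that any GFP precipitation may give cannot be told apart from binding of net, and in whole animals a site bound in a few cells cannot be told apart from one bound weakly in many.

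Proteins of this network bind DNA as pairs. Max is the common partner: with Myc it activates genes of growth and ribosome production, and with Mnt it represses them, so that Myc and Mnt compete for Max and for the same sites. Mondo pairs in a parallel branch with bigmax, the fly Mlx protein, to activate genes in response to sugar. The protein crp, which is related to vertebrate AP-4, carries the same kind of domain and acts in branching of the trachea. The pairs of Myc or Mnt with Max prefer the E-box CACGTG, 1 form of the CANNTG sequence that bHLH proteins recognise.

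The windows at the strongest peak of each gene are shown first, because the sequence that recurred among them was not an E-box. Each runs 50 bases to both sides of the summit, the position of highest signal within a peak, and is given 5′ to 3′ on the plus strand of build dm6. Capitals mark the word AGTTAGTA or its reverse complement TACTAACT.
Myc, chrX:3381852-3381952: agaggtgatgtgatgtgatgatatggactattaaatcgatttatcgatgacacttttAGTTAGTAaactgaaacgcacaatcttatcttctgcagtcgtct
Mnt, chrX:3682296-3682396: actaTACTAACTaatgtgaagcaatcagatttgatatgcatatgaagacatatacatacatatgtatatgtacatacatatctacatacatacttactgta
crp, chr2L:16279879-16279979: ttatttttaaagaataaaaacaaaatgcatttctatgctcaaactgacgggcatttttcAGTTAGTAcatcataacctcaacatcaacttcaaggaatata
Max, chr3L:19263577-19263677: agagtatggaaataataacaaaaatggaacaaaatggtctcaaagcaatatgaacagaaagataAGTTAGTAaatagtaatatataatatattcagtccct
Mondo, chr2L:21310531-21310631: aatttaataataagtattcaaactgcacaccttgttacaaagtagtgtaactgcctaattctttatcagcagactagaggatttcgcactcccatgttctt
bigmax, chr3R:27288641-27288741: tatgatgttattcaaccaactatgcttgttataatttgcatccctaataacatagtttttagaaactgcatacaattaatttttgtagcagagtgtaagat

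At the strongest summits of Myc, Mnt, crp and Max the same 8-letter word was found, and at those of Mondo and bigmax it was not. The word began 7 bases to the right of the summit in Myc, 9 in crp and 14 in Max, and in Mnt its reverse complement began 46 bases to the left. Among the 520 different 8-letter words in these 6 windows, counted with their reverse complements, it was the 1 word present in 4 windows. No word was present in 3, and 16 were present in 2. Over all 36 summits of the 6 genes, 4 windows (11.1%) held it, against 23 of the 7571 summits of the whole peak list (0.304%) and 0.145% of windows of the same length centred 250 bp to either side. In the 6 genes with 2 kb around them the word occurred 5 times, and 4 of these occurrences lay in the summit windows. Of its 3269 occurrences on the 7 chromosome arms, 23 (0.704%) lay in a summit window. The word was picked after these windows were seen, so the figures are a description with no test. At least as many of the 36 windows held each of 7 other 8-letter words, and the most frequent word was in 6.

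A net summit lay inside or at most 2 kb from every one of the 6 genes, against 34.4% of all protein-coding genes. The peaks are those of the authors' optimal list thresholded by the irreproducible discovery rate (IDR), 7571 in all, and 36 of them (0.475%) lay at the 6 genes. They were shared out unevenly: Mnt had 15, crp 11, Myc 5, Max 2, bigmax 2 and Mondo 1. Long genes have more room for summits, and Mnt, crp, Mondo and Myc are all among the longest 10% of genes by span, of which 67.9% had a summit by the same rule. In the equally large span classes that hold Max and bigmax the shares were 27.1% and 25%. When only peaks matched in both replicates 1 and 4, or in both replicates 1 and 3, were counted, 4 genes remained bound, without bigmax and Mondo, against 27.2% and 28.4% of protein-coding genes. The 6 genes were chosen by name with earlier results of these data known, so 6 of 6 is a count and not a test.

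**Figure D1:**
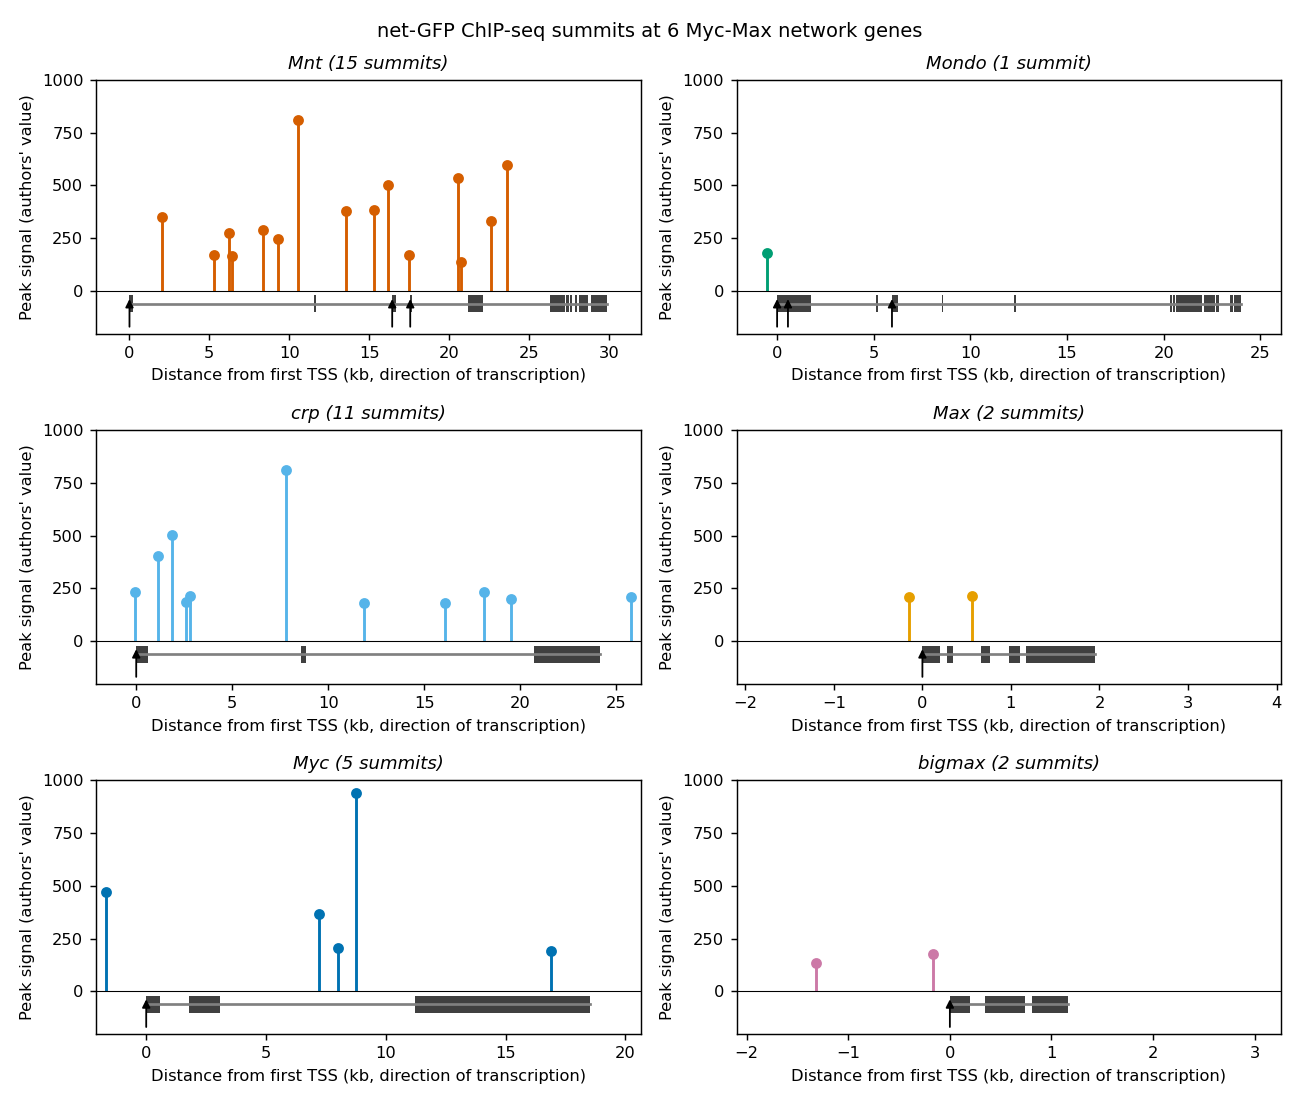
Summits of the IDR list at each of the 6 genes, with distance from the gene's first transcription start site (TSS) on the x axis in kb and the authors' signal on the y axis. Dark boxes are exons of all transcripts and arrows are start sites. Mnt, crp and Myc carry summits of signal 809, 812 and 939 inside introns, while Mondo, of similar span, has 1 summit of signal 181 upstream of its first start site.

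Mnt, which encodes the repressor of the network, held the most summits. It lies on X from 3671801 to 3701672 on the plus strand (FBgn0023215) and spans 29.9 kb with 3 start sites. All 15 summits were inside the gene and all were in introns, 10 of them upstream of the middle start site. Only 19 protein-coding genes had more summits and 2, Mnt included, had 15. Within the longest 10% of genes, 1.5% had at least as many summits, and 0.501% had at least as many per kb of gene and surroundings. The density was 4.43 summits per 10 kb, and the median gap between neighbouring summits was 1287 bp, against 4720 bp over all summits.

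The strongest Mnt peak, on X from 3682164 to 3682509, had signal 809 and ranked 371 in the IDR list. It lay in intron 1 of 8, 10545 bp downstream of the first start site. In the separate libraries it ranked 396 in replicate 1, 434 in replicate 3 and 445 in replicate 4, a mean of 425 ± 25.7 (SD, n = 3). The 3 ranks were close together. The next peaks lay downstream of all 3 start sites, at 3695341 to 3695613 with signal 598 and at 3692210 to 3692462 with signal 536. The first ranked 875 ± 360 and the second 1001 ± 231 in the libraries (SD, n = 3), so their ranges overlapped.

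By signal in the pooled list, the internal start sites of Mnt were marked more strongly than the first one. A peak of signal 503 from 3687871 to 3688090 had its summit 242 bp upstream of the middle start site, and ranked 1630, 847 and 938 in replicates 1, 3 and 4. A weaker one of signal 172, 60 bp upstream of the last start site, ranked 2312 in replicate 1 and 5125 in replicate 3 and had no summit within 100 bp in replicate 4. Within 500 bp of the first start site the summit was below the IDR threshold, with signal 121 and rank 8611 in the pooled list, 470 bp downstream. It ranked 6206, 12292 and 8412 in replicates 1, 3 and 4, so in replicate 4 it was matched while the peak at the last start site was not. Of the remaining summits, a pair at 3677995 and 3678203, with signals 276 and 168, had no counterpart within 100 bp in replicate 1 but ranked 2103 and 4725 in replicate 3 and 1374 and 2151 in replicate 4. The peaks of this pair overlap, and such overlaps reduce the 15 peaks to 13 separate regions.

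The gene crp carried the second largest number. It lies on 2L from 16263556 to 16287730 on the minus strand (FBgn0001994) and spans 24.2 kb with 1 start site. Of its 11 summits, 9 were inside the gene, all in its 2 introns. One lay 41 bp upstream of its start site, and the last lay past its 3′ end, 58 bp upstream of twe, which encodes a Cdc25 phosphatase. More summits were found at 51 protein-coding genes, and 4.51% of the longest 10% of genes had at least as many.

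The strongest crp peak, on 2L from 16279839 to 16280100, had signal 812 and lay in the first intron, 7801 bp downstream of the start site. It ranked 508, 424 and 302 in replicates 1, 3 and 4, a mean of 411 ± 104 (SD, n = 3), and 368 in the IDR list, beside the strongest Mnt peak at 371. Toward the start site the first intron held peaks of signal 501, 1855 bp downstream, and of signal 402, 1139 bp downstream, with mean ranks of 988 ± 116 and 1827 ± 857 (SD, n = 3). All 3 peaks were among the 7571 strongest of every library. The summit at the start site itself had signal 232 and ranked 4628 in replicate 1, 1556 in replicate 3 and 7587 in replicate 4, so that it differed more between the libraries.

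The weaker crp summits were uneven among the libraries. One in the first intron, of signal 187, ranked 11055 in replicate 1, 2547 in replicate 3 and 6270 in replicate 4. In the second intron, the summits at 16271641, 16269620 and 16268205, of signals 183, 234 and 198, ranked 8563, 9427 and 10229 in replicate 4, below the 7571 strongest peaks of that library. In replicate 1 they ranked 4387, 3237 and 2486, and in replicate 3 they ranked 4680, 2804 and 4869. All 3 were therefore lower in replicate 4 than in both other libraries. The start site nearest to these 3 summits was that of CG4935, 6064 to 9500 bp away. Another summit of this intron, at 16275868 with signal 182, ranked 5129 and 5199 in replicates 1 and 4 and had no counterpart within 100 bp in replicate 3.

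Myc, the activating partner of Max, had the strongest single peak of the 6 genes. It lies on X from 3373159 to 3391697 on the plus strand (FBgn0262656) with 1 start site, which the long noncoding gene lncRNA:CR44999 shares. The peak, from 3381728 to 3382072, had signal 939 and rank 250 and lay in the second intron of Myc, which is also intronic in the noncoding gene, 8743 bp downstream of the start site. It ranked 369, 251 and 227 in replicates 1, 3 and 4, a mean of 282 ± 76.0 (SD, n = 3). Among the 4804 bound protein-coding genes, 8.78% had a stronger peak than Myc, and 12.6% had a stronger one than Mnt or crp.

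The 4 other Myc summits ranged in signal from 190.4 to 472. The one of signal 472 lay upstream of the gene, 1696 bp from the start site in intergenic sequence from 3371337 to 3371580, and ranked 1313, 970 and 1350 in replicates 1, 3 and 4. Summits of signal 365 and 206 lay in the second intron with the strongest one, 7200 and 8006 bp downstream of the start site. The weaker of these ranked 8829 in replicate 1 and 4074 and 4029 in replicates 3 and 4. The last, of signal 190.4, lay 16909 bp downstream, in the 3′ UTR of Myc, which overlaps the 3′ UTR of CG12535 on the other strand, and it cannot be assigned to either gene alone.

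The start site of Myc had no IDR summit. A summit 6 bp downstream of it stood in the relaxed pooled list with signal 77.6 and rank 13763, far below the 7571 ranks of the IDR list, and it had no counterpart within 100 bp in replicate 1. By number, Myc was less exceptional than Mnt or crp among the longest 10% of genes, of which 24.7% had at least 5 summits. By summits per kb of gene and surroundings, 7.95% of this class reached the density of Myc, against 0.501% for Mnt and 0.787% for crp.

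Max, the shared partner, had 2 weak summits, both near the start of a neighbour. The gene lies on 3L from 19262232 to 19264184 on the minus strand (FBgn0017578) and spans 1.95 kb. The peak with signal 215, from 19263397 to 19263856, lay in the second Max intron, 557 bp downstream of the Max start site and 139 bp upstream of a start site shared by Mettl5, an rRNA methyltransferase gene, and CG42374. It ranked 3221, 7460 and 4541 in replicates 1, 3 and 4. The peak with signal 207 lay 146 bp upstream of the Max start site, inside the 5′ UTRs of the same neighbours and 74 bp from another of their start sites, and ranked 6287, 3294 and 5717. Both were among the 7571 strongest peaks of every library, and their order was reversed in replicate 3.

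Mondo and bigmax, the sugar-responsive pair, had lower signals in the IDR list than the other 4 genes when each gene was taken by its strongest peak. Each shared that peak with a divergent neighbour. The order was not the same in every library: in replicate 4 the best rank was 4249 for Mondo and 4541 for Max. The bigmax gene, on 3R from 27287366 to 27288526 on the minus strand (FBgn0039509), had a summit of signal 177 in the short interval between its start site, 165 bp away, and that of Hmu, 78 bp away. Hmu encodes haemomucin, a surface mucin. This summit ranked 8027, 5251 and 4887 in replicates 1, 3 and 4. A second, of signal 135 in an intron of Hmu, was among the last of the IDR list at rank 7496 and ranked 9915, 8022 and 7997 in the libraries. It was the only summit of the 36 that was outside the 7571 strongest peaks of all 3.

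Mondo lies on 2L from 21286078 to 21310050 on the minus strand (FBgn0032940). In spite of a span of 24.0 kb, 11 annotated transcripts and 3 start sites, it had no IDR summit inside the gene. Its 1 summit, of signal 181 from 21310351 to 21310810, lay 531 bp upstream of its first start site and 285 bp upstream of crc, which encodes the fly ATF4 protein, and ranked 9156, 6253 and 4249 in replicates 1, 3 and 4. A relaxed summit 113 bp downstream of the first Mondo start site had pooled rank 26109, and another, 77 bp upstream of the next start site, had rank 13154. Mondo had 0.357 summits per 10 kb, and 58.1% of the longest 10% of genes had at least this density. Among bound protein-coding genes, 82.9% had a stronger peak than Mondo, 84.0% a stronger one than bigmax and 72.3% a stronger one than Max.

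**Figure D2:**
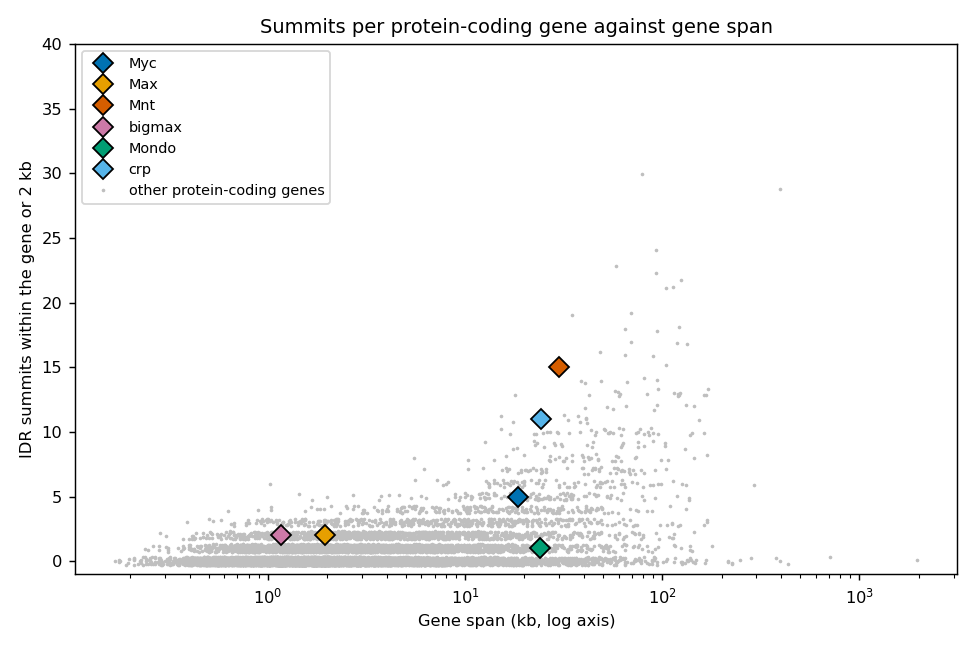
Number of IDR summits within the gene or 2 kb (y axis, grey points spread slightly around whole numbers) against gene span in kb on a log axis, for all protein-coding genes. Mnt with 15 and crp with 11 lie in the upper part of the cloud at their span, Myc with 5 lies lower, and Mondo with 1 is among the genes of few summits.

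Counting summits in each library gave the same unevenness. Among the 7571 strongest peaks of replicates 1, 3 and 4, Mnt had 16, 15 and 17 summits, a mean of 16 ± 1 (SD, n = 3). The counts for crp were 12, 12 and 9 (11 ± 1.73), and those for Myc were 4, 6 and 5 (5 ± 1). The ranges of these 3 genes did not overlap in any pair. Max had 2, 3 and 2 summits, Mondo had 1 in every library, and bigmax had 0, 1 and 1, so these 3 genes stayed below Myc in each library. For Mondo the summit counted in replicate 1 was another one, 85 bp from the crc start site, which ranked 6313 there and was below the IDR threshold in the pooled list. Between 34.1% and 37.4% of protein-coding genes had at least 1 summit by this count. The libraries contributed to the IDR list, so their counts are not an independent check of it.

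**Figure D3:**
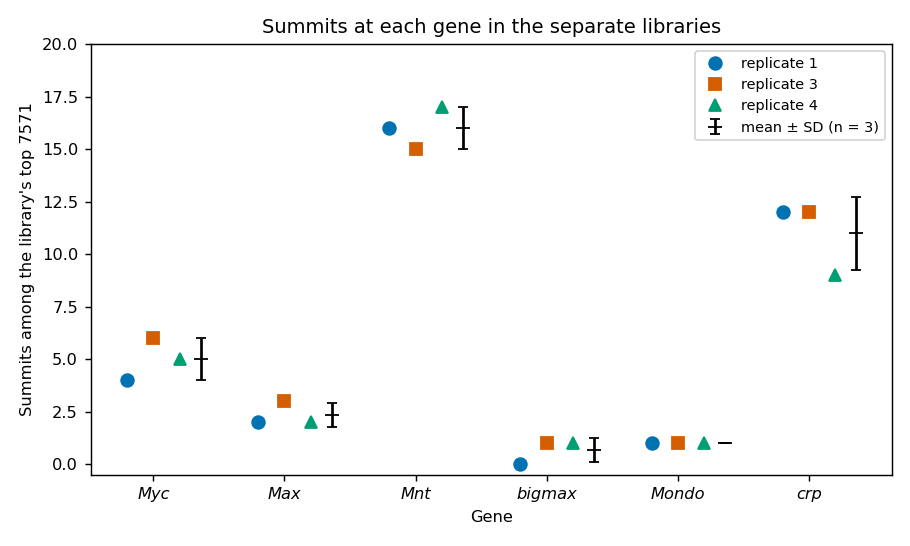
Number of summits within each gene or 2 kb among the 7571 strongest peaks of each library (y axis), with 1 symbol per replicate and the mean ± SD over the 3 replicates beside them. Mnt has 15 to 17, crp 9 to 12 and Myc 4 to 6, and the other genes have at most 3.

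Of the 36 summits, 20 (55.6%) had a counterpart within 100 bp among the 7571 strongest peaks of all 3 libraries, against 56.8% of all IDR peaks. The share was therefore near the background. Matches were found in 2 libraries for 14 summits, in 1 for 1 and in none for 1. By gene, all 3 libraries matched 10 of 15 summits at Mnt, 4 of 11 at crp, 4 of 5 at Myc and 2 of 2 at Max, and none at bigmax or Mondo, whose summits were missing from the equally long list of replicate 1. When the whole relaxed lists of 30000 peaks were searched, 30 summits were matched in all 3 libraries (85.9% of all IDR peaks were). Across the 31 to 33 summits matched in both of 2 libraries, Spearman's rho of the ranks was 0.752 for replicates 1 and 3, 0.769 for replicates 1 and 4 and 0.801 for replicates 3 and 4. For the same pairs, all matched IDR summits gave 0.749, 0.725 and 0.723. Neighbouring summits share a locus and are not independent, and no p is given.

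**Figure D4:**
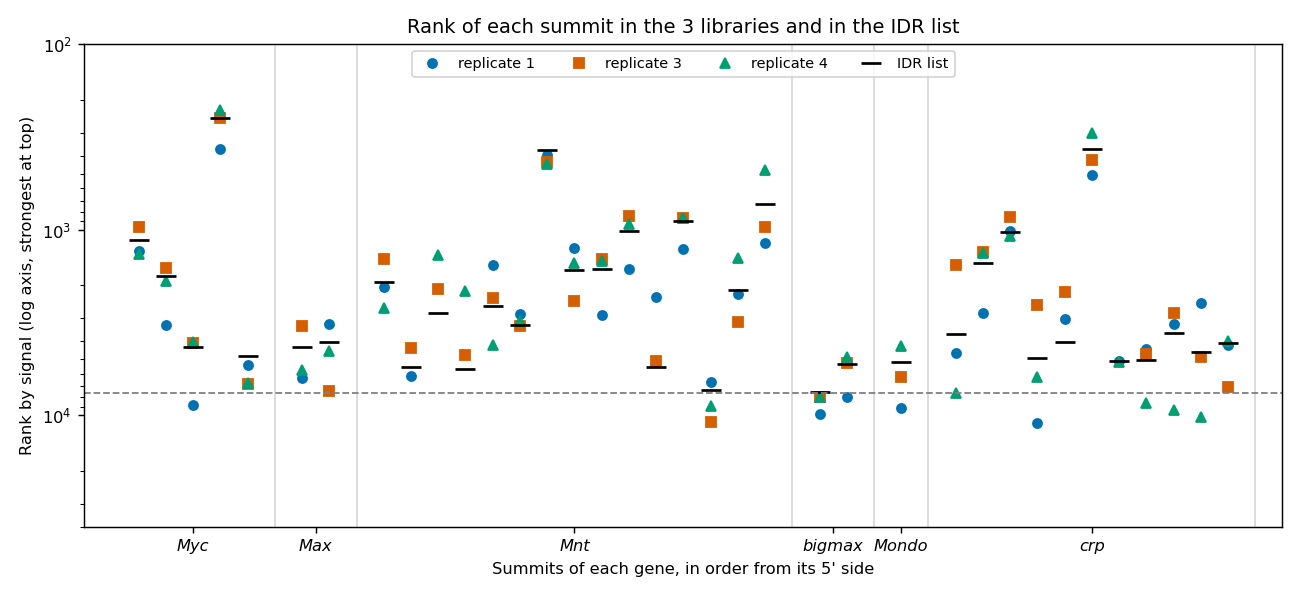
Rank by signal of each of the 36 summits in the 3 libraries (symbols) and in the IDR list (black dashes), on a log axis with the strongest at the top; a missing symbol means that no summit of that library lay within 100 bp, and the dashed line is rank 7571. The strongest summits of Myc, Mnt and crp rank between 227 and 508 in every library, and those of Max, bigmax and Mondo rank between 3221 and 9156.

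The 36 summits had a median signal of 233, against 225 over all IDR peaks. Of the 36, 12 were among the 1893 strongest peaks and 2 among the 1893 weakest, classes that each hold 25% of the whole list. All 12 belonged to Mnt, crp and Myc. The list ends at a signal of 134, and the next peak in the pooled list also has 134. Just inside this limit were the second bigmax summit with 135 and a Mnt summit with 137, which overlaps a stronger one. Just outside it were a relaxed summit with 126 past the 3′ end of Max, 3500 bp downstream of the Max start site and 5 bp from that of its neighbour nes, and one with 121 in Mnt.

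Most of these summits lay in introns. Introns away from start sites held 26 of 36 (72.2%), against 44.7% of all IDR summits, and 8 (22.2%) lay within 500 bp of some start site, against 36.5%. Of the 26, 25 lay in introns of Mnt, crp and Myc, and 1 lay in an intron of Hmu. Mnt, crp and Myc are among the longest 10% of genes by span. The intronic share of summits at other genes of that length is not given, so these shares are not matched for gene span. One summit (2.78%) was exonic and 1 intergenic, against 2.77% and 15.9% of all IDR summits. A summit within 500 bp of an own start site was found at 4 genes, Max, Mnt, bigmax and crp, against 18.2% of all protein-coding genes. With only summits matched in both libraries other than replicate 3, this held for 2 genes, and the share of all genes in that set is not given. Myc had none, and the Mondo summit lay 531 bp from its start site. The summits so counted for Max and bigmax lay nearer to a start site of a neighbour than to their own.

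E-boxes were about as frequent at these summits as in the rest of the list. A CANNTG sequence lay in the window of 16 of 36 (44.4%), against 36.7% of all IDR summits, and 41 of the 72 flanking windows of the 36 summits (56.9%) held one, against 42.5% of all flanking windows. The summits thus held an E-box less often than their own flanks in both sets, by count. The strongest windows of Myc, crp, Max, Mondo and bigmax held none. That of Mnt held CATATG in 2 places, starting 12 bases to the left and 8 to the right of the summit, and another Mnt summit, of signal 598, held the same sequence.

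The form that the Myc-Max pair prefers, CACGTG, was in 1.39% of the flanks of the 36 summits, against 1.32% of all flanking windows. It lay in 2 of the 36 summit windows (5.56%), against 0.792% of all IDR summits. One was in Mnt, 26 bases from the summit of a peak with signal 172, and the other in crp, 42 bases from the summit of a peak with signal 234. The Mnt peak ranked 5517 in the IDR list and the crp peak 3608, both below the strongest peaks of their genes, at 371 and 368. Over the 6 genes with 2 kb around them CACGTG occurred 28 times, 11 of them in Mnt and 7 in Mondo, and 26 of the 28 lay outside the summit windows. The windows are shown with the crp window that held the most E-boxes, and capitals mark every CANNTG.
Mnt, chrX:3677025-3677125: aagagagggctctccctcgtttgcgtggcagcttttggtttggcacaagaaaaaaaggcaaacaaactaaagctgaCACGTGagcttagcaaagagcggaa
crp, chr2L:16269570-16269670: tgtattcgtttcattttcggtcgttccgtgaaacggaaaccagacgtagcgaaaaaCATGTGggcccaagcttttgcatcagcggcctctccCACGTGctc
crp, chr2L:16271591-16271691: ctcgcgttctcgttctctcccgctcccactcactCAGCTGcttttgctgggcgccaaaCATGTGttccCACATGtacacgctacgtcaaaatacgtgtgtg

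The windows with CACGTG were richer in G and C than most. GC content averaged 36.7% ± 8.28 (SD) over the 36 windows, ranged from 25.7% to 54.5%, and was 41.5% in their flanks. Over all IDR summits it was 36.6% ± 10.2 (SD) with flanks at 44.1%. The 2 CACGTG windows had 47.5% and 51.5%, whereas the strongest windows of Myc, Mnt and crp had 35.6%, 26.7% and 28.7%. The summit was poorer in GC than the mean of its own flanks at 23 of 36 summits, against 70.2% of all IDR summits.

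Words known from fly promoters were looked for in the same windows on both strands. TATCGA, the core of the element bound by DREF, lay at 3 summits (8.33%, against 4.49% of all IDR summits). It was in 1.39% of the flanks of the 36 summits, against 3.51% of all flanking windows. The 3 summits were the strongest of Myc, the one at the crp start site and one in the second crp intron. GAGAG, the sequence bound by GAGA factor, lay at 10 (27.8%, against 14.3%), 6 of them in Mnt, 3 in crp and 1 in Myc. It was also in 20.8% of the flanks of the 36 summits, against 17.2% of all flanking windows, and it was absent from the windows of the 3 strongest peaks. Neither word was found at Max, bigmax or Mondo. A match of this kind is a description of the letters and not a site.

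Genes that act with or under these proteins were counted by the same rule, beside the 34.4% of all protein-coding genes. The shares of all genes used here are not matched for gene span. Of 8 genes known to respond to sugar through Mondo and bigmax, 8 had a summit and 6 had one within 500 bp of an own start site, against 18.2%. The strongest was that counted for cbt, a transcription factor gene, of signal 3538, in an intron of its neighbour ush and 1369 bp from the cbt start site. Zw, which encodes the first enzyme of the pentose phosphate pathway, had an intronic peak of signal 1259, and Aldh-III and daw, the latter an Activin-like ligand, had intergenic ones of 514 and 389. The list was drawn up with earlier results of these data known, and the peak of cbt ranked 2 of 7571. The 8 genes span 3.24 to 17.7 kb, and longer genes have more room for summits.

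Of 12 regulators and cofactors of Myc, 6 (50%) had a summit and 4 (33.3%) had one within 500 bp of an own start site, against 18.2%. The strongest were those of sgg, the kinase GSK3 that marks Myc for degradation, with signal 1104 close to a start site, and of brat, a repressor of Myc in neural lineages, with signal 940 in an intron and 10 summits. The long genes sgg and brat span 45.6 and 45.9 kb. A peak of 549 counted for pont, a chromatin remodelling ATPase that binds Myc, lay nearest to Sirt6. The ubiquitin ligase gene ago had 1 summit, of signal 178, and puf, Kdm5, Tip60, Nipped-A, hfp and Psi had none. Of 12 nucleolar and RNA polymerase I genes known as targets of Myc, 5 (41.7%) had a summit and 2 (16.7%) had one at an own start site, both close to the shares of all protein-coding genes. Their strongest peaks, counted for Surf6 (signal 504) and pit (462), lay in an intron of RhoGAP92B and in intergenic sequence nearest to how. Of 3 other bHLH-zipper genes, SREBP carried signal 799 at a summit inside its own intron, 499 bp from a start site of SREBP. Replicate 1 did not match this summit within 100 bp. Mitf and Usf had no summit.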

How the data were processed

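ChIP-seq peak lists of 3 libraries of net-GFP prepupae were used. Per the deposited file descriptions, the authors made a relaxed list of peaks and background for each library and for the pooled alignments, with a control alignment, and derived an IDR-thresholded list from them. The peak caller is not given in the sources used here. Column 7 is the signal the authors deposited per peak, on an unstated scale, and served here for ranking inside each list and for description. All 7571 IDR peaks stood with the same signal in the pooled list as its 7571 strongest. The relaxed lists hold 30000 peaks each. The peak lists used give no read counts, so the depth is unknown. The dm3 lists were not used here.

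Summits were the peak start plus the deposited offset, given 1-based on dm6. Genes came from Ensembl release 115, without transposable elements and pseudogenes (17947 genes), and sequence from the RefSeq copy of the Release 6 genome. A gene was called bound by a summit within it or 2 kb. Library ranks are those of the nearest summit within 100 bp. Windows were 101 bases long. All 35 genes of the 4 further lists were matched, 1 through a synonym (lid, now Kdm5). Counting and matching were checked on simulated data, in Python 3.11.15 with pandas 2.3.3. There were no groups to compare and no test was run. The text names all 6 genes and every neighbour that holds or is nearest to a summit, and from each further list those with the strongest peaks. The members and lists were chosen with earlier results of these data known. Alternatives were the distance to the gene, the peak set, the promoter limit, the match distance, the E-box window and leaving out each replicate.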

Additional observations from a re-analysis of the deposited data

How the results depend on the processing

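Of 51 recomputed values, 44 stayed within 1.5 times the main count or, for ranks, within the SD over the libraries. Of the 51, 24 were ranks, and none of these could easily leave that SD, as set out below. The 7 values that moved were all counts. A fall from 6 bound genes to 4 was taken as within 1.5 times. With the 3785 strongest peaks, 3 of the 6 genes (Myc, Mnt and crp) kept a summit, with 19 summits in all, against 23.9% of protein-coding genes. Peaks matched in all 3 libraries left 20 summits at 4 genes, against 25.6% of protein-coding genes. With peaks matched in both remaining libraries, leaving out a replicate gave 21 to 27 summits, the lowest without replicate 3. All 6 genes were bound without replicate 1 (against 28.1% of protein-coding genes), but 4 without replicate 3 (27.2%) and 4 without replicate 4 (28.4%), because bigmax and Mondo were not matched in replicate 1. The number of genes with a summit within 500 bp of an own start site was then 2 to 3, with 2 without replicate 3. Of the summits left, 7 to 12 held an E-box: 9 of 26 without replicate 1, 7 of 21 without replicate 3 and 12 of 27 without replicate 4. These sets hold fewer peaks by construction. For the start-site and E-box counts, the shares over all genes and all peaks kept are not given, so these counts lack a background. The strongest peak of each gene kept a rank within the SD over the libraries in all 24 alternatives. These alternatives combine the same library ranks that give the SD, so they could hardly leave it and say little about stability. For Max, with an SD of 2169, the rank was 4033 in the main list, 4837 without replicate 1 and 3231 without replicate 3. Within the gene alone, 4 genes had summits, against 15.0% of protein-coding genes. No paired analysis was possible because there was 1 group. Depth and background of the libraries are unknown.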
